A study of Tupaia belangeri chinensis with 36 samples.

Results

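The annotation of the Chinese tree shrew used for these data names many of its noncoding features after a nearby or overlapping gene, as a long intergenic transcript (LINC) or as a transcript antisense (AS) to that gene. Coordinates were not at hand, so position and strand relative to the named gene rest on the name alone. The features described here are those whose LINC or AS name carries the symbol of a solute carrier (SLC) gene, chosen by name alone. There were 1033 of them among 76871 features, with 519 LINC and 514 AS names, and they were spread over 278 SLC symbols. Of these symbols, 75 had 1 such transcript, and the most at 1 symbol was 25. The name rule also took in 8 transcripts of SLC4A1AP and SLC2A4RG, whose products are a partner protein and a transcriptional regulator and not carriers.

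RNA came from layers of the fetal cortex that were cut from stained sections with a laser microscope, and the labels give each library its layer and age. At E28 (embryonic day 28) there were 2 libraries each of the ventricular zone (VZ), inner and outer subventricular zone (ISVZ and OSVZ), intermediate zone (IZ), cortical plate (CP) and marginal zone (MZ). At E37 there were 2 MZ and 3 IZ libraries, 1 CP library, and 2 each of the inner and outer CP (CPi and CPo), while the E37 germinal layers were not analysed here. At E42 there were 2 each of the ISVZ, OSVZ, IZ, CPi, CPo and MZ and 1 of the VZ, because the file labelled replicate 2 of the E42 VZ holds the same counts as replicate 2 of the E28 VZ and was left out. Thus 35 distinct libraries were used, all from untreated fetal tissue as far as the labels say. The VZ, ISVZ and OSVZ are called germinal layers below, and the IZ, the CP with its inner and outer parts, and the MZ neuron-rich layers.

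Solute carriers are membrane proteins that move amino acids, sugars, ions, metals, nucleotides and transmitters across the plasma membrane and organelle membranes. In the developing cortex some of their genes mark cell states. SLC1A3, a glutamate transporter, is a known marker of radial glia, and SLC17A6 and SLC32A1 load glutamate and GABA into synaptic vesicles. A noncoding transcript named after such a gene need not follow it. The mRNAs of the carriers themselves were not analysed here, because the coding features carry identifiers without a symbol. For the same reason 0 features had the name of a layer marker gene, and the labelled layers were not checked against markers.

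Each library had between 17932690 and 102042743 counts on features (median 31756620). Copies made by PCR were counted with the rest. Between 14.99% and 19.06% of the counted lines were ambiguous between features and entered none of them. The library kit does not mark strand as described, so that reads of an AS feature and of the gene on the other strand cannot be told apart where the features overlap. Values are given as CPM, that is counts scaled to library size after TMM normalization. The lengths of the features were not known, so levels are compared between libraries and not between transcripts.

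The SLC-named transcripts were rare. Their share of all counts was 0.007491% to 0.01521%, and between 106 and 406 of them had a count in 1 library (median 183). Of the 1033, 333 had no count in any of the 35 libraries, 300 had 1 to 9 counts in all, and 33 had a count in every library. After features with low counts were removed, 193 were left for testing (71 LINC and 122 AS, from 124 symbols), which is 18.7% of them, close to the 19.6% of all noncoding features. The 840 transcripts that were not tested had at most 27 counts in a library, and their highest count had a median of 1. Because a transcript could pass this filter through 1 library where it was high, the tested transcripts do not stand for all 1033. Their mean CPM over the 35 libraries ran from 0.01399 to 7.913 with a median of 0.1149, against 0.1318 for all tested noncoding features and 13.33 for the coding ones. Only 22 reached a mean of 1 CPM.

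Summed over all SLC-named transcripts, the germinal libraries of E28 held 74.91 to 93.15 CPM before TMM scaling (median 80.15, n = 6) and the neuron-rich ones 88.98 to 129.7 (median 92.1, n = 6). At E37 the neuron-rich libraries held 79.27 to 101.8 (median 84.68, n = 10). At E42 the sums were 102.6 to 152.1 in the germinal layers (median 128.6, n = 5) and 99.89 to 129.7 in the neuron-rich layers (median 107, n = 8). The sums of the E42 germinal libraries thus lay above all those of the E28 germinal libraries, and the 2 kinds of layer overlapped at each of those stages.

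The 8 transcripts with the highest mean held 42.4% of the summed mean CPM. They were SLC20A2-AS-3 (mean 7.913 CPM), SLC24A5-AS-1 (7.652), LINC-SLC16A7-1 (6.395), LINC-SLC25A6-1 (4.872), SLC40A1-AS-2 (4.352), LINC-SLC2A12-2 (4.236), SLC39A14-AS-1 (3.456) and SLC4A1AP-AS-2 (3.281). The genes in their names encode a phosphate importer, a potassium-dependent sodium/calcium exchanger, a monocarboxylate transporter, a mitochondrial ADP/ATP carrier, the iron exporter ferroportin, a glucose transporter, a zinc and manganese importer and, for SLC4A1AP, the protein kanadaptin. LINC-SLC25A6-1 passed the threshold in 0 of the 11 comparisons made. It had 2.49 to 10.9 CPM in the neuron-rich (median 4.79) and 1.62 to 5.81 in the germinal libraries of E28 (median 3.58), with a log2 fold change of −0.54 (standard error 0.32, adjusted p = 0.198). SLC20A2-AS-3 had the smallest ratio of its highest to its lowest library of these 8, with values between 5.36 and 11.9 CPM at E28 (median 7.2, n = 12) and between 5.95 and 11.7 at E37 (median 8.99, n = 10).

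Differences were tested with edgeR's quasi-likelihood model of all 35 libraries, and a transcript was called at a Benjamini-Hochberg adjusted p under 0.05 over all 26858 features tested. All adjusted p below are from this test unless another setting is named. Each standard error below is the absolute log2 fold change divided by the square root of the test's F statistic. It follows from the test and is not a separate estimate by the model. In the 11 comparisons, 62 of the 193 tested transcripts, of 48 SLC symbols, were called at least once (32.1%), against 64.7% of all features and 40% of the noncoding features. Of these, 30 were called in 1 comparison and 3 in 6. In bulk libraries, fewer cells of a type and less RNA per cell cannot be told apart, and this holds for every difference below.

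**Figure D1:**
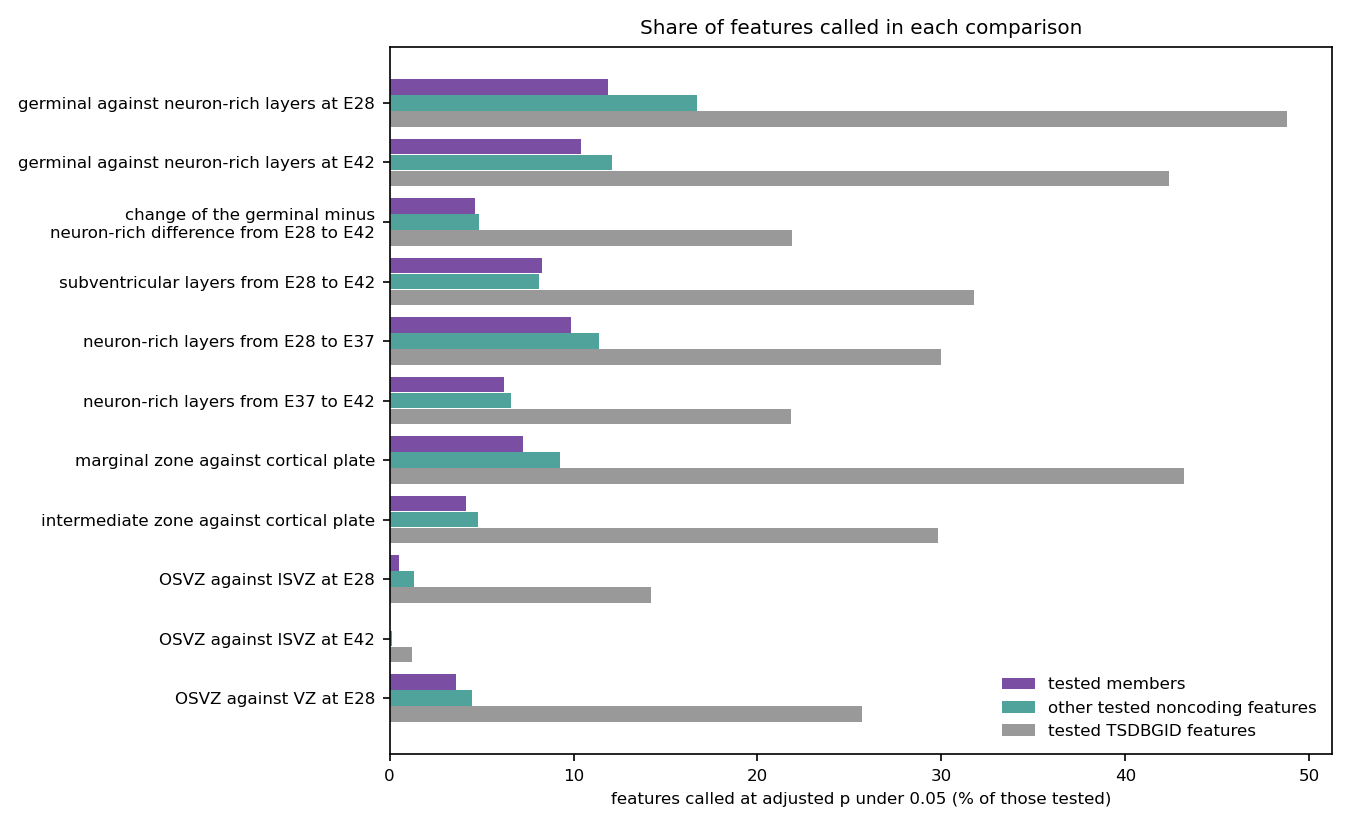
Share of tested features called in each of the 11 comparisons, as a percent of the features tested (horizontal axis), for the 193 tested SLC-named transcripts, the other tested noncoding features and the tested coding (TSDBGID) features. The 2 noncoding sets had shares close to each other, such as 10.4% and 12.1% for germinal against neuron-rich layers at E42, and coding features were called more often in all 11 comparisons.

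At E28, LINC-SLC43A3-2, SLC1A3-AS-1 and SLC1A3-AS-3 were higher in the germinal layers, while LINC-SLC16A7-1, LINC-SLC2A12-2, SLC25A12-AS-1, SLC25A23-AS-3 and SLC4A1AP-AS-2 were higher in the neuron-rich layers. Other tested transcripts of these symbols, such as SLC43A3-AS-1, SLC1A3-AS-4 and LINC-SLC4A1AP-5, were not called. Of the 193 transcripts, 23 differed (11.9%), with 13 higher and 10 lower in the germinal layers. Of all features tested, 35.7% were called in this comparison (18.5% higher and 17.1% lower), and of the noncoding features 16.6% (6.39% higher and 10.2% lower), so that the share of the SLC-named transcripts was below both. The direction split depended on the test, with 9 higher and 14 lower by the DESeq2 Wald test. With DESeq2's size factors in edgeR it was 12 higher and 12 lower. The median log2 fold change of the 193 was −0.36 (−0.42 with transcripts lacking counts on one side set at 3 counts over that side), against −0.30 for the noncoding and −0.05 for all tested features.

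LINC-SLC43A3-2 had the smallest adjusted p of the transcripts higher in the germinal layers. SLC43A3 encodes a purine nucleobase transporter. At E28 its CPM was 7.27 and 9.97 in the VZ, 6.92 and 10.1 in the ISVZ and 3.22 and 2.37 in the OSVZ. The neuron-rich libraries had 1.45 and 2.11 in the IZ, 0.328 and 0.216 in the CP and 0.425 and 1.59 in the MZ. Every germinal library lay above every neuron-rich one, with a log2 fold change of 2.92 (standard error 0.32, adjusted p = 1.28e-08). The call held in all 42 alternatives.

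SLC1A3-AS-1 and SLC1A3-AS-3, named as antisense to the glutamate transporter of radial glia, had most of their counts in the germinal layers at E28. The former had 0.798 and 1.34 CPM in the VZ, 0.613 and 0.67 in the ISVZ, and 0.165 and 0.0579 in the OSVZ. In the neuron-rich layers it had 0.29 and 0.0345 in the IZ, 0 and 0.0541 in the CP, and 0 in both MZ libraries. The OSVZ overlapped with the IZ, while the VZ and ISVZ lay above all others, and the germinal layers were higher by a log2 fold change of 3.97 (standard error 0.76, adjusted p = 0.000104). SLC1A3-AS-3 had a count in 5 of 6 germinal libraries, with up to 0.433 CPM, and in 0 of 6 neuron-rich libraries. Its level was at least 13.77-fold higher in the germinal layers (against 3 counts over the neuron-rich libraries, adjusted p = 0.000199).

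LINC-SLC16A7-1 had low values next to the ventricle at E28. It had 0 and 0.0742 CPM in the VZ, 1.15 and 1.61 in the ISVZ, and 2.09 and 6.95 in the OSVZ. In the neuron-rich layers it had 3.8 and 9.12 in the IZ, 1.19 and 4.82 in the CP and 9.98 and 8.86 in the MZ. The VZ was lowest and the MZ among the highest, while the ISVZ overlapped with the CP, and the OSVZ with the IZ and CP. The germinal layers were lower by a log2 fold change of −3.12 (standard error 0.38, adjusted p = 1.12e-07), and the call held in all 42 alternatives.

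LINC-SLC2A12-2 peaked in the CP. At E28 it had 11.2 and 9.41 CPM there, 3.87 and 1.59 in the IZ, and 3.31 and 1.63 in the MZ. The germinal libraries had 0.272 to 1.93 (median 0.625), with overlap only between the OSVZ and the lowest IZ and MZ values. The log2 fold change was −2.57 (standard error 0.34, adjusted p = 3.76e-07). Of the 3 called transcripts of mitochondrial carriers, 2 moved the same way. The other, LINC-SLC25A26-1, was higher in the germinal layers (log2 fold change 3.34, adjusted p = 0.0404). It is a low transcript that was named after its values were seen. SLC25A12-AS-1, named after the aspartate/glutamate carrier, had 0.0319 to 0.518 CPM in the germinal (median 0.21) and 0.364 to 1.94 in the neuron-rich libraries (median 1.24), a log2 fold change of −2.19 (standard error 0.55, adjusted p = 0.00191). For SLC25A23-AS-3, named after a calcium-regulated ATP-Mg/phosphate carrier, the ranges were 0.606 to 1.18 (median 0.822) and 0.933 to 4 (median 1.96), a log2 fold change of −1.28 (standard error 0.26, adjusted p = 0.000156). SLC4A1AP-AS-2 had 0.638 to 2.06 CPM in the germinal libraries (median 1.37) and 1.94 to 6.09 in the neuron-rich ones (median 3.17), with a log2 fold change of −1.41 (standard error 0.29, adjusted p = 0.000205).

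SLC20A2-AS-3 had a small difference at E28, with 6.95 to 11.9 CPM in the germinal libraries (median 8.54) and 5.36 to 8.04 in the neuron-rich ones (median 6.62), a log2 fold change of 0.44 (standard error 0.17, adjusted p = 0.0418). This call was lost without either VZ or ISVZ library, without replicate 1 of the OSVZ, or without replicate 2 of the CP, IZ or MZ (adjusted p up to 0.22). It was also lost with DESeq2's size factors (adjusted p = 0.0936), with no filter on low counts (0.263), with only the libraries compared (0.134) and with the repeated VZ file kept.

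**Figure D2:**
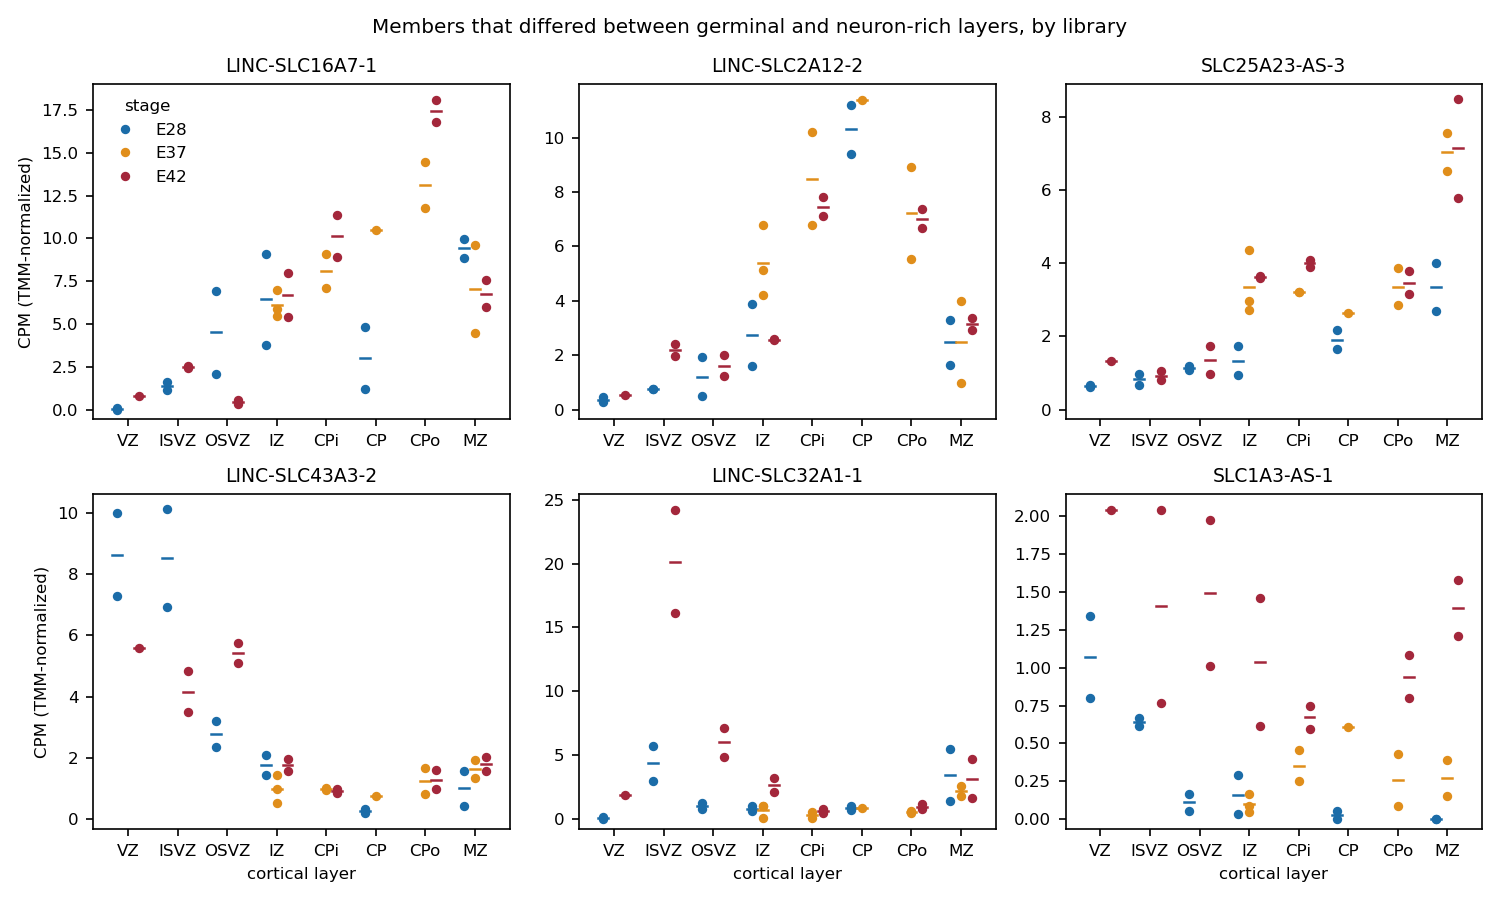
CPM (vertical axis, linear) of 6 SLC-named transcripts in every library, by layer from the ventricle outward (horizontal axis) and stage (colour). Points are libraries and short bars their mean. LINC-SLC16A7-1, LINC-SLC2A12-2 and SLC25A23-AS-3 are higher in the neuron-rich layers, LINC-SLC43A3-2 in the germinal layers, LINC-SLC32A1-1 reaches 24.2 CPM in the E42 ISVZ, and SLC1A3-AS-1 spreads to all layers at E42.

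At E42, LINC-SLC43A3-2, LINC-SLC32A1-1 and LINC-SLC4A7-1 were higher in the germinal layers, and LINC-SLC16A7-1, LINC-SLC2A12-2 and SLC25A23-AS-3 were higher in the neuron-rich layers. Of the 193 transcripts, 20 differed (10.4%), with 12 higher and 8 lower in the germinal layers. Of all features, 30.1% were called (15.6% higher and 14.4% lower), and of the noncoding features 12.1% (7.31% higher and 4.78% lower). The DESeq2 Wald test gave 10 higher and 11 lower, and DESeq2's size factors in edgeR gave 11 and 9. The median log2 fold change was 0.17 (0.27 with transcripts at the 3-count bound), against 0.20 for noncoding and 0.07 for all features. The VZ entered with 1 library. The count fell to 12 without replicate 1 of the ISVZ, IZ or MZ, and to 13 without replicate 1 of the CPo, replicate 1 of the VZ or replicate 2 of the CPi.

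LINC-SLC43A3-2 had 5.6 CPM in the VZ library, 3.5 and 4.82 in the ISVZ and 5.76 and 5.08 in the OSVZ at E42, against 0.858 to 2.03 (median 1.57, n = 8) in the neuron-rich libraries. The ranges did not overlap, and the log2 fold change was 1.73 (standard error 0.3, adjusted p = 3.32e-05). LINC-SLC4A7-1, named after a sodium bicarbonate cotransporter, had 2.64 in the VZ, 2.54 and 2.51 in the ISVZ and 4.41 and 3.24 in the OSVZ, all above the neuron-rich range of 0.438 to 1.69 (median 0.96). Its log2 fold change was 1.55 (standard error 0.32, adjusted p = 0.000315). Both calls held in all 42 alternatives.

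SLC25A36-AS-1, named after a mitochondrial pyrimidine nucleotide carrier, had 0.387 to 0.671 CPM in the germinal libraries of E42 (median 0.572) against 0.0964 to 0.335 in the neuron-rich ones (median 0.17), without overlap, and a log2 fold change of 1.57 (standard error 0.58, adjusted p = 0.0409). SLC25A36-AS-1 lost its call with no filter on low counts (adjusted p = 0.134) and with the repeated VZ file kept (0.0854). It was no longer called without the VZ library, either CPo, ISVZ or MZ library, replicate 1 of the IZ, or replicate 2 of the CPi or OSVZ (adjusted p up to 0.119).

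Among the transcripts higher in the neuron-rich layers of E42, LINC-SLC16A7-1 had 11.4 and 8.94 CPM in the CPi, 16.8 and 18.1 in the CPo, 7.98 and 5.39 in the IZ and 7.56 and 5.98 in the MZ. The germinal libraries had 0.77 in the VZ, 2.52 and 2.4 in the ISVZ and 0.58 and 0.324 in the OSVZ. The ranges did not overlap, and the log2 fold change was −3.16 (standard error 0.4, adjusted p = 3e-07). For LINC-SLC2A12-2 the germinal range of 0.533 to 2.42 CPM (median 1.97) lay below the neuron-rich range of 2.54 to 7.81 (median 5.03), a log2 fold change of −1.64 (standard error 0.36, adjusted p = 0.000647). SLC25A23-AS-3 had 0.806 to 1.74 CPM (median 1.05) against 3.16 to 8.49 (median 3.84), without overlap, and a log2 fold change of −1.95 (standard error 0.28, adjusted p = 2.07e-06).

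There were 10 transcripts called at both E28 and E42 (43.5% of the E28 and 50% of the E42 calls), each in one direction at both stages. They were 5.18% of the 193, against 20.2% of all features and 5.79% of the noncoding features. Of the noncoding calls, 34.8% at E28 and 47.9% at E42 were shared between the stages, and 94.8% of the shared ones had the same direction at both. Of the 10, 5 were higher in the germinal layers, among them LINC-SLC43A3-1, LINC-SLC43A3-2, LINC-SLC12A1-1 and SLC39A1-AS-1. The 5 lower ones included LINC-SLC16A7-1, LINC-SLC2A12-2, SLC25A23-AS-3 and LINC-SLC4A8-3. LINC-SLC43A3-1, LINC-SLC12A1-1, SLC39A1-AS-1 and LINC-SLC4A8-3 are low transcripts that were named after their values were seen. LINC-SLC4A8-3 had 0 to 0.128 CPM in the E28 germinal libraries (median 0) and 0.0322 to 1.001 in the neuron-rich ones (median 0.405), with log2 fold changes of −4.25 at E28 (adjusted p = 0.00131) and −4.59 at E42 (adjusted p = 0.00423).

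**Figure D3:**
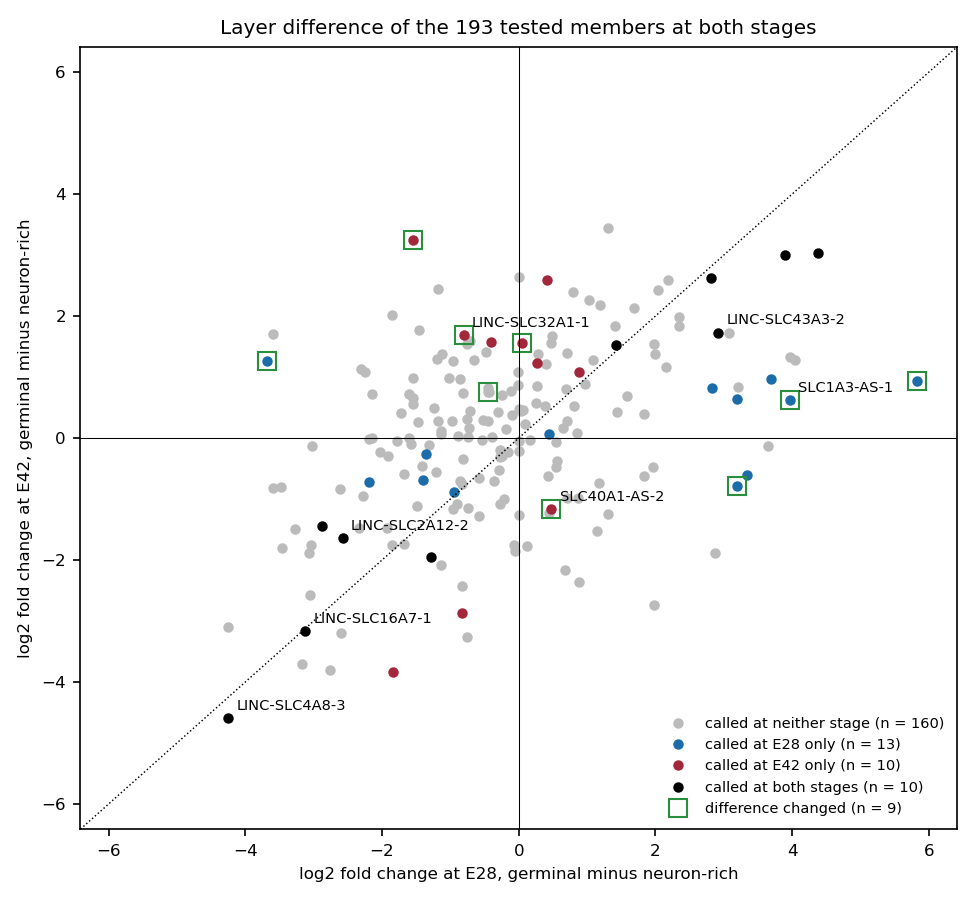
Log2 fold change of germinal minus neuron-rich layers at E28 (horizontal axis) and at E42 (vertical axis) for the 193 tested transcripts, coloured by the stage at which they were called, with the dotted line marking equal values. The 10 transcripts called at both stages lie in the lower left and upper right, and green squares mark the 9 whose difference changed by the test of the interaction.

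The layer difference itself changed from E28 to E42 for 9 transcripts (4.66%), by the test of the interaction. It shifted toward the germinal layers for 5 and toward the neuron-rich layers for 4. Of all features, 15% changed (6.67% toward the germinal and 8.3% toward the neuron-rich layers), and of the noncoding features 4.85% (3.73% and 1.12%). The count was 5 without replicate 2 of the IZ or of the MZ at E42, and 3 when the repeated VZ file was kept as an E42 library, with 0 toward the germinal and 3 toward the neuron-rich layers.

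LINC-SLC32A1-1, named after the vesicular GABA transporter, was highest in the ISVZ of E42, with 16.1 and 24.2 CPM. The OSVZ of E42 had 4.87 and 7.17 and its VZ library had 1.93, while the neuron-rich libraries had 0.477 to 4.72 (median 1.4, n = 8). At E28 it had 5.77 and 3.01 in the ISVZ, 1.29 and 0.782 in the OSVZ, 0.191 and 0.0247 in the VZ and 5.46 and 1.41 in the MZ. The ISVZ was thus the highest germinal layer at both stages, and the E28 MZ overlapped with the E28 ISVZ. The germinal minus neuron-rich difference was −0.81 on the log2 scale at E28 and 1.68 at E42 (adjusted p = 0.00189 at E42), and it changed by 2.49 (standard error 0.61, adjusted p = 0.00506). With the repeated VZ file kept, the difference at E42 had an adjusted p of 0.0514 and the change one of 0.096. That file enters the same counts at both stages, which draws their VZ values together by construction.

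LINC-SLC4A7-1 had no layer difference at E28 beyond its error (log2 fold change 0.04), and the change to 1.55 at E42 was 1.51 (standard error 0.46, adjusted p = 0.0224). This call was lost without replicate 2 of the E28 MZ (adjusted p = 0.102), with no filter on low counts (0.107) and with the repeated VZ file kept (0.0694). SLC4A1AP-AS-1 shifted from −0.45 to 0.76, a change of 1.22 (standard error 0.42, adjusted p = 0.0481). Its adjusted p was 0.0648 with no filter on low counts, 0.0623 with only the libraries compared and 0.0848 with the repeated VZ file kept. The latter call was near the threshold and was lost without replicate 1 of the E28 ISVZ, OSVZ or VZ, either E28 IZ library, replicate 2 of the E28 CP or MZ, replicate 1 of the E37 IZ, any E37 CPi or CPo library, or any E42 library other than replicate 1 of the MZ and OSVZ (adjusted p up to 0.146).

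The layer difference of SLC40A1-AS-2 changed toward the neuron-rich layers. At E28 it had 10.1 and 8.26 CPM in the VZ, 7.07 and 6.97 in the ISVZ and 4.57 and 4.63 in the OSVZ, against 2.4 to 6.52 (median 5.12) in the neuron-rich libraries. At E42 it had 0.829 in the VZ library, 3.36 and 3.24 in the ISVZ and 2.78 and 2.51 in the OSVZ, while the CPo had 9.67 and 12.8, the CPi 5.69 and 6.43, the MZ 4.71 and 5.16 and the IZ 3.23 and 0.809. The VZ was the highest layer at E28, where the OSVZ overlapped with the neuron-rich libraries and the difference of 0.48 was not called (adjusted p = 0.199). At E42 the CPo was highest and the VZ library and 1 IZ library were lowest. The difference was −1.17 on the log2 scale at E42, a change of −1.65 from E28 (standard error 0.41, adjusted p = 0.00597). The change was −0.83 (adjusted p = 0.363) with the repeated VZ file kept and −1.11 (adjusted p = 0.0616) without the E42 VZ library. The difference at E42 (standard error 0.31, adjusted p = 0.00402) was lost without replicate 1 of the IZ or of the VZ at E42 (adjusted p up to 0.137) and was −0.35 (adjusted p = 0.501) with the repeated VZ file kept.

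At E42 SLC1A3-AS-1 was found in all layers. It had 2.04 CPM in the VZ library, 2.04 and 0.77 in the ISVZ, and 1.01 and 1.97 in the OSVZ. In the neuron-rich layers it had 1.46 and 0.614 in the IZ, 0.596 and 0.747 in the CPi, 1.08 and 0.798 in the CPo and 1.58 and 1.21 in the MZ, so that the 2 kinds of layer overlapped. Its layer difference changed by −3.34 (standard error 0.94, adjusted p = 0.0142), from 3.97 to 0.62, and the call held in all 42 alternatives. For SLC1A3-AS-3 the change as fitted was −4.89 (standard error 1.37, adjusted p = 0.0143). It had no count in the E28 neuron-rich libraries, so the size of this change depends on the small count the model adds. The call was lost without replicate 1 of the E28 OSVZ, where the change was −3.36 and the E28 OSVZ has no count. LINC-SLC22A23-2, named after an organic ion transporter family member, changed by −3.98 (standard error 1.28, adjusted p = 0.0334), from 3.19 to −0.79. Its E28 level was 0.447 and 0.742 CPM in the VZ and 0 to 0.328 in the neuron-rich libraries. That call was lost without replicate 1 of the E28 IZ, replicate 2 of the E28 ISVZ or OSVZ, replicate 1 of the E42 CPo, ISVZ or OSVZ, or replicate 2 of the E42 IZ or MZ (adjusted p up to 1).

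In the subventricular layers (ISVZ and OSVZ together, 4 libraries a stage), SLC24A5-AS-1, SLC39A14-AS-1, LINC-SLC32A1-1, SLC1A3-AS-1 and SLC33A1-AS-1 rose from E28 to E42, and SLC40A1-AS-2 and LINC-SLC16A7-1 fell. Of the 193, 16 differed (8.29%), with 14 higher and 2 lower at E42. Of all features, 22.2% were called (12.5% higher and 9.64% lower), and of the noncoding features 8.1% (6.78% higher and 1.32% lower). The median log2 fold change was 0.60 (0.68 with transcripts at the 3-count bound), against 0.72 for noncoding and 0.24 for all features. The count was 6 without replicate 1 of the E42 ISVZ, 8 without either E28 ISVZ library and 9 without replicate 2 of the E28 OSVZ.

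SLC33A1-AS-1, named after the acetyl-CoA transporter of the endoplasmic reticulum, had 0.18 and 0.122 CPM in the E28 ISVZ and 0.0275 and 0.0289 in the E28 OSVZ. At E42 it had 0.911 and 0.717 in the ISVZ and 0.928 and 0.423 in the OSVZ. The stages did not overlap, and the log2 fold change was 3.41 (standard error 0.85, adjusted p = 0.00373). SLC39A14-AS-1 had 0.865 and 1.04 CPM in the ISVZ and 0.633 and 1.51 in the OSVZ at E28, and 2.73 and 3.64 in the ISVZ and 4.37 and 4.08 in the OSVZ at E42. All E42 values lay above those of E28, with a log2 fold change of 1.86 (standard error 0.37, adjusted p = 0.000362). Both calls held in all 42 alternatives.

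LINC-SLC32A1-1 rose by a log2 fold change of 2.37 (standard error 0.51, adjusted p = 0.000978), with 0.782 to 5.77 CPM at E28 and 4.87 to 24.2 at E42. SLC1A3-AS-1 rose by 2.41 (standard error 0.64, adjusted p = 0.00618), with 0.0579 to 0.67 at E28 below 0.77 to 2.04 at E42. LINC-SLC4A7-1 rose by 1.21 (standard error 0.39, adjusted p = 0.024), from 0.865 to 1.84 CPM to 2.51 to 4.41. With no filter on low counts its adjusted p was 0.107. The last of these calls was lost without replicate 1 of the E28 ISVZ, either E28 OSVZ library, either E42 ISVZ library or replicate 1 of the E42 OSVZ (adjusted p up to 0.097).

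SLC24A5-AS-1 had 7.68 and 5.15 CPM in the ISVZ and 6.99 and 4.8 in the OSVZ at E28, and 16 and 10.6 in the ISVZ and 9.2 and 14.9 in the OSVZ at E42. The stages did not overlap, and the log2 fold change was 1.04 (standard error 0.34, adjusted p = 0.0252). SLC40A1-AS-2 fell from 4.57 to 7.07 CPM at E28 to 2.51 to 3.36 at E42, a log2 fold change of −0.94 (standard error 0.34, adjusted p = 0.0471). With no filter on low counts its adjusted p was 0.0516, and with the repeated VZ file kept 0.145. Its call was lost without any E28 library of the VZ, ISVZ, OSVZ or IZ, replicate 2 of the E37 IZ, or any E42 library of the CPi, CPo, ISVZ, OSVZ or MZ (adjusted p up to 0.128). LINC-SLC16A7-1 fell by 1.26 on the log2 scale (standard error 0.41, adjusted p = 0.0269), from 1.15 to 6.95 CPM to 0.324 to 2.52, with overlap. With the repeated VZ file kept its adjusted p was 0.0723. That call was lost without replicate 2 of the E28 ISVZ or OSVZ, either E42 ISVZ library or replicate 2 of the E42 OSVZ (adjusted p up to 0.251).

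**Figure D4:**
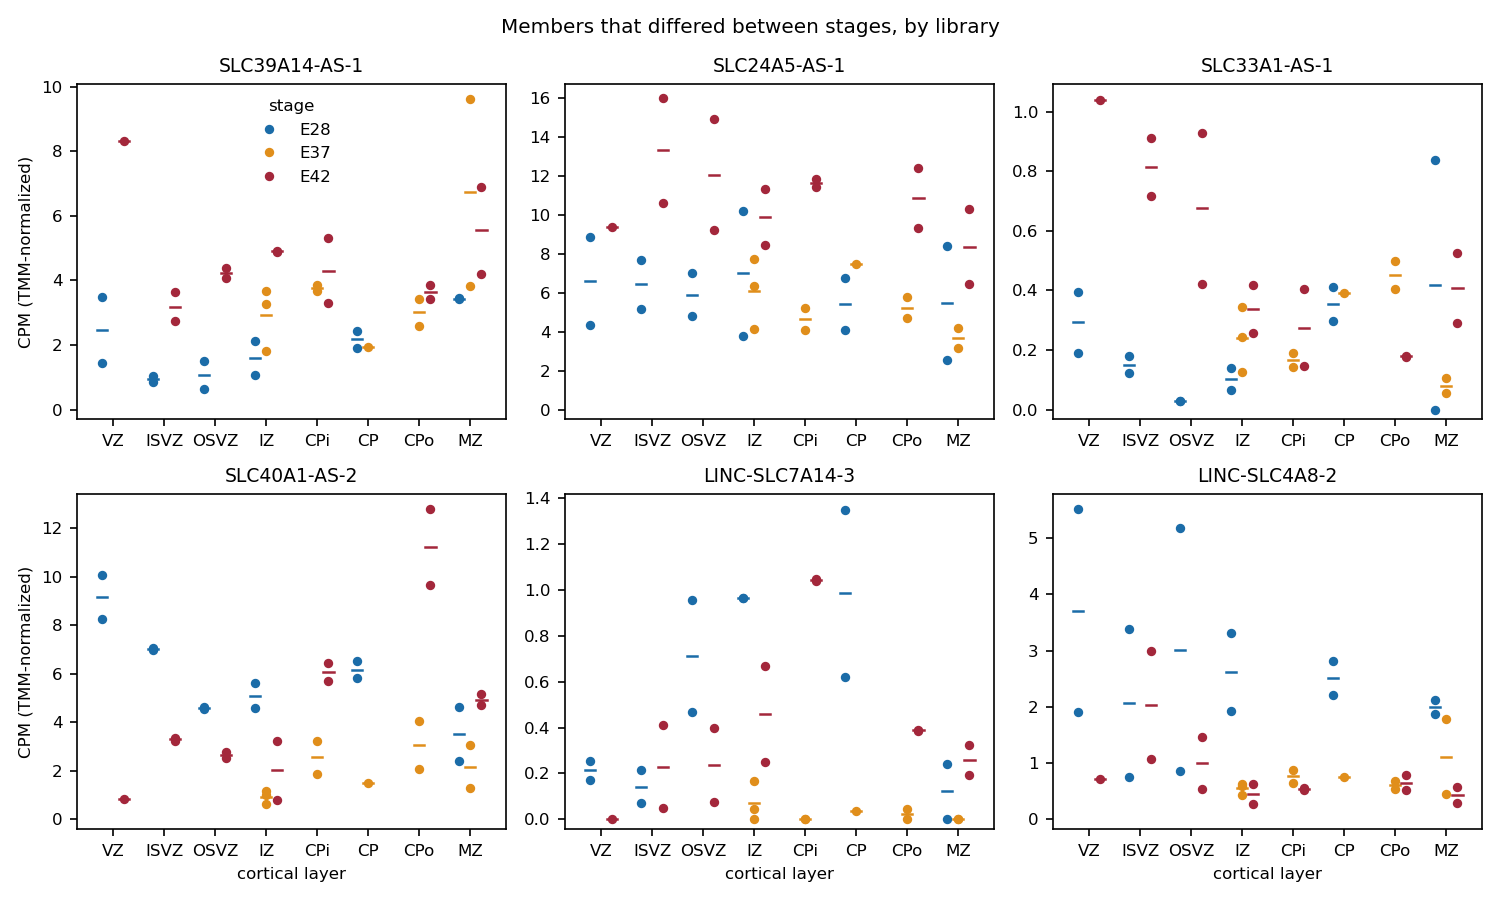
CPM (vertical axis, linear) of 6 SLC-named transcripts in every library, by layer (horizontal axis) and stage (colour). Points are libraries and short bars their mean. SLC24A5-AS-1 is highest at E42 in most layers, LINC-SLC7A14-3 is at or near 0 in all 10 E37 libraries, and SLC40A1-AS-2 is low at E37 and reaches 12.8 CPM in the E42 CPo.

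In the neuron-rich layers, from E28 to E37, SLC40A1-AS-2, SLC45A3-AS-1, LINC-SLC4A8-2 and 3 SLC7A14 transcripts fell, while SLC25A23-AS-3, SLC39A14-AS-1, SLC1A3-AS-1 and SLC1A3-AS-3 rose. There were 19 calls among the 193 (9.84%), with 6 higher and 13 lower at E37. Of all features, 22.4% were called (12% higher and 10.4% lower), and of the noncoding features 11.4% (3.44% higher and 7.96% lower). From E37 to E42, 12 were called (6.22%), with 11 higher and 1 lower at E42. Here 15.6% of all features were called (10.3% higher and 5.3% lower) and 6.6% of the noncoding features (5.54% higher and 1.05% lower). Both steps use the same 10 E37 libraries, so their values are given side by side only. The first count was 11 without replicate 1 of the E28 IZ, and the second was 19 without either E28 MZ library. With the replicate number as a block the counts were 18 for both steps.

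SLC40A1-AS-2 had 2.4 to 6.52 CPM in the neuron-rich libraries of E28 (median 5.12, n = 6), 0.633 to 4.07 at E37 (median 1.69, n = 10) and 0.809 to 12.8 at E42 (median 5.43, n = 8). It was lowest at E37 with overlap between neighbouring stages, with a log2 fold change of −1.47 to E37 (standard error 0.26, adjusted p = 0.000128) and then of 1.34 (standard error 0.25, adjusted p = 0.000407). LINC-SLC7A14-3, named after a lysosomal relative of the cationic amino acid transporters, had 0 to 1.35 CPM at E28 (median 0.794), 0 to 0.168 at E37 (median 0, with 7 counts in all) and 0.193 to 1.05 at E42 (median 0.388). On the log2 scale it fell by 5.07 (standard error 0.89, adjusted p = 0.000138) and rose by 4.85 (standard error 0.86, adjusted p = 0.000254). The fall from E28 to E37 lost its call without replicate 1 of the E28 MZ (adjusted p = 1), after which the E28 MZ has no count.

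The SLC7A14 symbol had 4 tested transcripts of 10, and 3 of them shared this course. LINC-SLC7A14-4 had 0 to 0.334 CPM at E28 (median 0.0816), no count in the 10 E37 libraries, and 0 to 0.217 at E42 (median 0.0749). Its E28 level was at least 9.863-fold and its E42 level at least 6.715-fold that of E37 (against 3 counts over the E37 libraries, adjusted p = 0.0094 and 0.0128). LINC-SLC7A14-6 had 0.041 to 0.364 CPM at E28 (median 0.183), 2 counts in all at E37, and 0.0197 to 0.31 at E42 (median 0.17), with adjusted p of 0.00203 and 0.0165. The ratio of pooled counts to E37 was 26 at E28 (95% exact interval of counting error 6.7 to 223) and 18.3 at E42 (4.85 to 155). These intervals leave out the spread between libraries. The model, which weighs layers alike, gave log2 fold changes of −5.26 to E37 and then 4.32. SLC7A14-AS-2 was not called at either step and had 0 to 0.605 CPM at E37. The 4 features share a symbol and are not independent of each other.

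SLC25A23-AS-3 rose from 0.933 to 4 CPM at E28 (median 1.96) to 2.65 to 7.56 at E37 (median 3.2), a log2 fold change of 1.04 (standard error 0.23, adjusted p = 0.00151). LINC-SLC4A8-2, named after a sodium-driven chloride/bicarbonate exchanger, fell from 1.88 to 3.32 CPM (median 2.17) to 0.432 to 1.78 (median 0.641), without overlap, by 1.63 on the log2 scale (standard error 0.42, adjusted p = 0.00478). SLC45A3-AS-1 had 0.258 to 0.82 CPM at E28 (median 0.572, 90 counts in 6 libraries) and an overlapping 0 to 0.322 at E37 (median 0.174, 38 counts in 10 libraries). Its log2 fold change was −3.34 (standard error 0.84, adjusted p = 0.00463). This value averages layers on the log scale, where layers with few counts weigh heavily, and the medians differ by less. These 3 calls held in every alternative that gave a value.

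SLC39A14-AS-1 rose by 0.78 from E28 to E37 (standard error 0.27, adjusted p = 0.0366), with 1.06 to 3.44 CPM at E28 (median 2.26) and an overlapping 1.8 to 9.62 at E37 (median 3.54). Libraries that share a replicate number deviated in common at both stages, and with that number as a block the value was 0.58 (adjusted p = 0.0734). The block is set within each stage and does not bring the spread between replicate numbers into this comparison of stages. With only the libraries compared the adjusted p was 0.0651, and with the repeated VZ file kept 0.0547. The call was also lost without either E28 CP library, replicate 1 of the E28 IZ, replicate 2 of the E28 MZ, replicate 2 of the E37 CPi, replicates 2 and 3 of the E37 IZ in turn, or replicate 3 of the E37 MZ (adjusted p up to 0.211).

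From E37 to E42, SLC1A3-AS-1 rose from 0.0487 to 0.608 CPM (median 0.21) to 0.596 to 1.58 (median 0.94), by 2.29 on the log2 scale (standard error 0.46, adjusted p = 0.000931). From E28 to E37 it had risen by 2.97 (adjusted p = 0.00621), from a median of 0.0173 CPM. SLC24A5-AS-1 had 2.56 to 10.2 CPM at E28 (median 5.39), 3.17 to 7.7 at E37 (median 4.97) and 6.42 to 12.4 at E42 (median 10.8), with a log2 fold change of 0.99 at the second step (standard error 0.24, adjusted p = 0.00516). SLC43A3-AS-1 had 0 to 0.611 CPM at E37 (median 0.166) and 0.177 to 1.74 at E42 (median 0.405), a log2 fold change of 1.97 (standard error 0.55, adjusted p = 0.0145). Its call was lost without replicate 3 of the E37 MZ or replicate 2 of the E42 IZ (adjusted p up to 0.0626).

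Against the CP, averaged over the 3 stages, the MZ had more LINC-SLC32A1-1, LINC-SLC43A3-2 and SLC25A23-AS-3 and less LINC-SLC2A12-2. Of the 193, 14 were called (7.25%), with 11 higher and 3 lower in the MZ. Of all features, 29.3% were called (15% higher and 14.3% lower), and of the noncoding features 9.23% (5.75% higher and 3.48% lower). The IZ differed from the CP in 8 transcripts (4.15%), with 5 higher and 3 lower, against 19.6% of all features (10% higher and 9.57% lower) and 4.8% of the noncoding features (3.6% higher and 1.2% lower). The MZ and IZ were compared with the same CP libraries. The MZ count was 9 without replicate 2 of the E42 MZ. The IZ count was 3 without replicate 1 of the E28 IZ, 4 without replicate 1 of the E28 CP or of the E42 IZ, and 5 without replicate 2 of the E28 CP or replicate 1 or 3 of the E37 IZ. It was also 5 with the replicate number as a block.

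LINC-SLC32A1-1 had 1.41 to 5.46 CPM in the 6 MZ libraries (median 2.2) and 0.114 to 1.16 in the 11 CP, CPi and CPo libraries (median 0.73), without overlap, and a log2 fold change of 2.03 (standard error 0.37, adjusted p = 8.9e-05). LINC-SLC2A12-2 had 0.969 to 4 CPM in the MZ (median 3.12), below the 5.54 to 11.4 of the CP (median 7.81), and 1.59 to 6.79 in the IZ (median 3.87), which overlapped with the CP. The log2 fold change against the CP was −1.69 in the MZ (standard error 0.3, adjusted p = 5.2e-05) and −1.35 in the IZ (standard error 0.28, adjusted p = 0.00066). SLC40A1-AS-2 was lower in the IZ, with 0.633 to 5.61 CPM (median 1.17, n = 7) against 1.5 to 12.8 in the CP (median 5.69), a log2 fold change of −1.23 (standard error 0.26, adjusted p = 0.000634). These 4 calls held in all 42 alternatives.

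LINC-SLC43A3-2 was higher than in the CP (0.216 to 1.66 CPM, median 0.953) in both other layers, by 1.09 on the log2 scale in the MZ (0.425 to 2.03 CPM, median 1.58, standard error 0.29, adjusted p = 0.00384) and 1.13 in the IZ (0.545 to 2.11 CPM, median 1.46, standard error 0.28, adjusted p = 0.00345). The ranges overlapped, and the MZ call was lost without replicate 2 of the E28 MZ (adjusted p = 0.0728). LINC-SLC4A1AP-5 had 0 and 2.07 CPM in the MZ at E28, 0.167 and 1.52 at E37 and 0.124 and 0.434 at E42. Its log2 fold change of 2.50 in the MZ (standard error 0.89, adjusted p = 0.0358) rested on replicate 2 of the E28 MZ, without which it was −0.23 (adjusted p = 0.98). It was also not called without replicate 1 of the E28 CP, replicate 3 of the E37 MZ, replicate 1 of the E42 CPi, replicate 2 of the E42 CPo or replicate 2 of the E42 MZ, and with the replicate number as a block it was 2.73 (adjusted p = 0.0517). With only the libraries compared it was 2.47 (adjusted p = 0.0725).

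Within the germinal zone of E28, the OSVZ had more LINC-SLC16A7-1, LINC-SLC32A1-1, LINC-SLC2A12-2 and LINC-SLC17A6-1 and less LINC-SLC43A3-2 and SLC1A3-AS-1 than the VZ. They were among the 7 calls of the 193 (3.63%), with 5 higher and 2 lower in the OSVZ. Of all features, 17.1% were called (8.13% higher and 8.92% lower in the OSVZ), and of the noncoding features 4.45% (3.03% higher and 1.42% lower). LINC-SLC2A12-2 was near the threshold (log2 fold change 1.76, adjusted p = 0.0477). It had 0.492 and 1.93 CPM in the OSVZ and 0.272 and 0.447 in the VZ. For LINC-SLC32A1-1 the log2 fold change was 3.31 (adjusted p = 0.00891). LINC-SLC16A7-1 had 2.09 and 6.95 CPM in the OSVZ and 0 and 0.0742 in the VZ. With 316 counts against 3, its pooled ratio was 107 (95% exact interval of counting error 36.2 to 520). That interval leaves out the spread between libraries. By the model its log2 fold change was 6.66 (adjusted p = 5.13e-07). LINC-SLC17A6-1, named after a vesicular glutamate transporter, had 0.358 and 0.666 CPM in the OSVZ and no count in either VZ library. It was at least 12.24-fold higher in the OSVZ (against 3 counts over the VZ libraries, adjusted p = 0.0361). This call was lost without any of these 4 libraries and with no filter on low counts (adjusted p = 0.0626 with no filter). The count of 7 was 1 without replicate 2 of the VZ and 3 without either OSVZ library.

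LINC-SLC43A3-2 was lower in the OSVZ than in the VZ by 1.62 on the log2 scale (standard error 0.51, adjusted p = 0.0259), a call lost without either OSVZ library or replicate 2 of the VZ (adjusted p up to 0.203). SLC1A3-AS-1 was lower by 3.21 (standard error 0.96, adjusted p = 0.0174) and was not called without replicate 2 of either layer (adjusted p up to 0.187). Against the ISVZ of E28, LINC-SLC43A3-2 was the 1 transcript called (0.518%, against 8.94% of all and 1.31% of the noncoding features), with 3.22 and 2.37 CPM in the OSVZ and 6.92 and 10.1 in the ISVZ, and a log2 fold change of −1.60 (standard error 0.51, adjusted p = 0.047). The count was 0 without either E28 ISVZ library, replicate 2 of the E28 OSVZ, either E37 CPi library or any E42 library other than that of the VZ, and 2 without either E28 CP library or replicate 2 of the E28 MZ. The call of LINC-SLC43A3-2 was lost without any of 24 libraries, namely those that brought the count to 0, replicate 1 of the E28 OSVZ, both E28 IZ and VZ libraries, replicate 3 of the E37 IZ and the E42 VZ library (adjusted p up to 0.328). It was also lost with no filter on low counts (adjusted p = 0.0823), with the repeated VZ file kept (0.0686) and with DESeq2's size factors (0.054). With those size factors the 1 call was another transcript, higher in the OSVZ. With the replicate number as a block 4 transcripts were called, and 5 by the DESeq2 Wald test.

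At E42, 0 transcripts differed between the OSVZ and the ISVZ by edgeR's test (against 0.774% of all and 0.11% of the noncoding features), while 4 had an unadjusted p under 0.05. The nearest to the threshold was LINC-SLC16A7-1, with 0.58 and 0.324 CPM in the OSVZ below 2.52 and 2.4 in the ISVZ (log2 fold change −2.47, standard error 0.61, adjusted p = 0.0519). The DESeq2 Wald test called 1, and so did edgeR with the replicate number as a block. The count was 1 without either E28 library of the CP, IZ, OSVZ or VZ or either E37 library of the MZ.

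The tested transcripts were also grouped by what the family of the gene in the name transports, and the counts below stand beside the 40% of noncoding features and 64.7% of all features called at least once. Those of amino acid and glutamate carriers were called in at least 1 comparison for 14 of 35, and those of ion and pH exchangers for 12 of 27. The counts were 11 of 27 for carriers of organic acids, bile acids, drugs and peptides, 6 of 17 for metal and 6 of 25 for mitochondrial carriers, and 5 of 10 for neurotransmitter carriers. For sugar carriers it was 2 of 17, and for carriers of vitamins, choline, fatty acids and haem 2 of 8. None of the 22 transcripts of nucleoside and nucleotide sugar carriers was called by edgeR in any comparison. All 4 tested transcripts of SLC4A1AP and SLC2A4RG were called at least once. No test was made between these groups, whose members differ in level. Apart from SLC4A1AP and SLC2A4RG, the groups follow the family number alone, so single genes in a group may carry something else. SLC43A3, for example, is counted with the amino acid carriers, although its product carries nucleobases.

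The symbols with the most tested transcripts were SLC22A23 with 5 of 18, and SLC1A3 (4 of 8), SLC7A14 (4 of 10), SLC35F1 (4 of 9) and SLC8A1 (4 of 18). At SLC35F1, with mean levels of 0.0385 to 0.185 CPM, and at SLC8A1, with 0.0194 to 0.0983, 0 transcripts were called by edgeR in any of the 11 comparisons. At SLC22A23, 2 were called in at least 1 comparison, and mean levels were 0.0288 to 0.299 CPM. LINC-SLC22A23-1 had 1.63 CPM in the VZ library of E42, its highest value, and 0 in both CP and both MZ libraries of E28. At SLC1A3, SLC1A3-AS-4 and SLC1A3-AS-5 were not called, and SLC1A3-AS-5 had counts in replicate 1 but not in replicate 2 of the ISVZ, CPo, CPi and MZ at E42.

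By the group with the highest mean, 91 of the 193 transcripts (47.2%) peaked in a germinal layer, against 46.2% of the tested noncoding features. The single VZ library of E42 was the highest group for 44 (22.8%, against 19% of noncoding features), which has no replicate here. A transcript high in that library alone could pass the filter. An E42 group was highest for 103, an E28 group for 60 and an E37 group for 30. At E28, 3 transcripts were higher in replicate 1 in all 6 layers (SLC24A5-AS-1, LINC-SLC32A1-1 and SLC39A3-AS-1) and 10 were higher in replicate 2, among them LINC-SLC25A6-1, SLC4A1AP-AS-1 and LINC-SLC4A8-2. These made up 6.74% of the tested transcripts, and 15.8% of all features tested went one way in this manner. What the replicate number marks was not stated in the sources used, and its part in the results was not tested beyond the block.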

How the data were processed

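Reads were trimmed, mapped with HISAT2, handled with SAMtools and counted per annotated feature with HTSeq by the authors (tools per the submitters' processing notes). The deposited values are raw counts per feature, without normalization. The strand setting of the counting was not given in the sources used here. From these counts, features were filtered with filterByExpr (minimum count of 10, by group), normalized by TMM and fitted in 1 model of 18 groups of layer and stage with edgeR 4.0.16 (R 4.3.3, limma 3.58.1, data.table at version 1.17.8). The smallest groups hold 1 library, so 1 library above the cutoff of the filter was enough. The model had 17 residual degrees of freedom and a common biological coefficient of variation of 0.378, and contrasts were tested by quasi-likelihood at an adjusted p of 0.05. DESeq2 (1.42.0), the test of the study, served as an alternative. Layer means were weighted alike, the 5 CP libraries of E37 were taken alike, and the CP of E42 was the mean of CPi and CPo. Fits without a library kept the features and the dispersion trend of the full fit. The model was also run on counts simulated from its own dispersions with independent libraries. That run cannot show an effect of shared replicate numbers, and nothing is concluded from it. Plots were drawn with matplotlib.

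Of 630 pairs of libraries, 1 held identical counts (replicate 2 of the VZ at E28 and E42), and the E42 file was left out. Replicate pairs differed by more than sampling noise (chi-square per degree of freedom 18.38 to 69.35, 18 pairs). The labels do not say what a replicate is, so p-values measure only the spread between these libraries. As a check of pairing, deviations of libraries with one replicate number were correlated between layers. It exceeded 0.1 for all 15 layer pairs of E28, all 6 of E37 and 10 of the 15 of E42, and the number was taken to pair libraries at E28 and E37, from these values alone. The main model still took these libraries as independent, so its p-values for comparisons between stages may be too small. The block was set within each stage and does not correct this, because it leaves the spread between replicate numbers out of such comparisons.

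The transcripts, lists and tests were chosen with earlier results of these data known. Named are the 8 with the highest mean CPM, up to 5 called in each direction with the largest fold change and a mean of at least 0.5 CPM on one side (germinal against neuron-rich layers and the subventricular comparison), up to 3 in each direction for other comparisons by the same rule, and the symbols with 4 or more tested transcripts, and 36 called transcripts were not named by it. Some of the named transcripts are not reported here. Of the 278 symbols, 266 are in the RefSeq gene list used, and 0 feature identifiers are. Alternatives were no filter, a stricter filter, DESeq2, its size factors in edgeR, the replicate number as a block, only the libraries compared, the repeated file kept, and each library left out.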

Additional observations from a re-analysis of the deposited data

Results flagged for a closer look

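For 9 transcripts the contrast of germinal with neuron-rich layers was not alike at E28 and E42 by the interaction test of edgeR's quasi-likelihood model, which is what set them apart. LINC-SLC38A4-3, named after an amino acid transporter, had the largest change as fitted on the log2 scale, 4.95 (standard error 1.63, adjusted p = 0.0381), from −3.68 at E28 to 1.27 at E42. It had no count in the VZ at E28, 0.492 and 0.46 CPM in the CP, and 0.474 CPM in the VZ library of E42. SLC8B1-AS-1, named after the mitochondrial sodium/calcium exchanger, changed by 4.79 (standard error 1.59, adjusted p = 0.0444), from −1.55 to 3.24. At E42 it had 0.233 to 0.541 CPM in the 5 germinal libraries, above the 0 to 0.16 of the neuron-rich ones, and it had no count in the 10 libraries of E37. Both were low and were named after their values were seen. The call of LINC-SLC38A4-3 was lost without either E28 VZ library, replicate 2 of the E28 ISVZ, OSVZ, IZ or MZ, the E42 VZ library, either E42 MZ library, or replicate 2 of the E42 ISVZ, OSVZ or IZ. That of SLC8B1-AS-1 was lost without either CP, OSVZ or VZ library of E28, replicate 1 of its ISVZ or IZ, replicate 2 of its MZ, either ISVZ, OSVZ or MZ library of E42, replicate 1 of its CPi, or replicate 2 of its CPo or IZ. For both the adjusted p was up to 1. Both calls were also lost with the repeated VZ file kept (adjusted p = 0.0858 and 0.0688), and that of SLC8B1-AS-1 with no filter on low counts (0.0542).

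The changes of the transcripts described above were −4.89 for SLC1A3-AS-3, −3.98 for LINC-SLC22A23-2, −3.34 for SLC1A3-AS-1, 2.49 for LINC-SLC32A1-1, −1.65 for SLC40A1-AS-2, 1.51 for LINC-SLC4A7-1 and 1.22 for SLC4A1AP-AS-1. That of SLC1A3-AS-3 has no firm size, because its E28 neuron-rich libraries had no count. The VZ of E42 entered with 1 library, and 3 of the 9 calls were left when the repeated file was kept as its second library, those of SLC1A3-AS-1, SLC1A3-AS-3 and LINC-SLC22A23-2. That setting enters the same counts at E28 and E42, which draws the VZ values of the stages together by construction.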

How the results depend on the processing

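Of the 53 calls that the naming rule picked from the comparisons, 28 held in every alternative that gave a value. Other calls given above, such as those of SLC24A5-AS-1 and LINC-SLC7A14-6, are outside this count. The calls lost were 9 with no filter on low counts, 2 with DESeq2's size factors, 2 with the replicate block, 5 when only the libraries compared entered, and 11 when the repeated VZ file was kept. The DESeq2 Wald test and the stricter filter, which gave values for 52 and 49 of them, lost none. The 1 value that changed sign was that of LINC-SLC4A1AP-5 (MZ against CP), −0.23 without replicate 2 of the E28 MZ and up to 3.98 without other single libraries. Counts of called transcripts moved by over 1.5 times as follows. For OSVZ against ISVZ at E28 (1), the count was 5 by the DESeq2 Wald test, 2 with no filter, 0 with the repeated file kept, 4 with the replicate block and 3 with the stricter filter (1 CPM in 2 libraries). At E42 (0) it was 1 by the DESeq2 Wald test, with DESeq2's size factors, with no filter and with the replicate block, and 2 with only the libraries compared. For germinal against neuron-rich layers at E28 (23) it was 13 with only the libraries compared and 14 with the stricter filter. For the neuron-rich layers from E28 to E37 (19) these gave 8 and 10. The change of the layer difference (9) was 3 with the repeated file kept. The stricter filter gave 10 for the subventricular layers (16), 9 for the MZ (14) and 4 for the IZ against the CP (8), and the replicate block gave 5 for the IZ. It tested fewer transcripts by construction; the cause of the other moves was not tested. Leaving out single libraries gave 17 to 27 and 12 to 23 calls for germinal against neuron-rich layers at E28 and E42, 5 to 10 for their change, 6 to 21 for the subventricular layers, 11 to 22 and 8 to 19 for the neuron-rich steps, 9 to 17 for the MZ, 3 to 10 for the IZ, 0 to 2 and 0 to 1 for OSVZ against ISVZ at E28 and E42, and 1 to 8 for OSVZ against VZ. DESeq2's size factors moved the median of all features by at most 0.06 on the log2 scale. Of these 53 calls, the replicate block ended only those of SLC39A14-AS-1 (E28 to E37) and LINC-SLC4A1AP-5. For comparisons between stages the block leaves out the spread between replicate numbers. Most tested transcripts had under 1 CPM, so that few counts stand behind them.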
